A study of Mus musculus with 6 samples.

Results

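Heat shock proteins and their co-chaperones were measured in sham-operated sciatic nerve of female and male mice. The members were taken by gene symbol alone: every gene with a protein-coding transcript and a symbol of the Hspa, Hspb, Hspd, Hspe, Hsp90, Hsph1, Dnaja, Dnajb, Dnajc, Bag, Cct, Tcp1, Hsf1 or Hsf2 names, whatever its level. This gave 91 of the 21647 symbols with a protein-coding transcript. The nerves came from C57BL/6 mice of 6 to 8 weeks, whose left sciatic nerve was exposed at mid-thigh under isoflurane and not cut, and they were taken 24 h after this sham surgery. Sequencing libraries of poly(A) RNA were made from 3 female pools (F1 to F3) and 3 male pools (M1 to M3), each from 2 mice, of a tissue that the labels call whole left sciatic nerve and the study's methods call proximal segments of it. Both sexes therefore carried the same anesthesia, incision and suture, and nerves without surgery and injured nerves were not analysed here. In RNA of bulk nerve, fewer cells of a type and less RNA per cell cannot be told apart.

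Chaperones bind unfolded or partly folded proteins and help them to fold, to cross membranes or to reach degradation. Hsp70 proteins hold and release their clients in cycles of ATP hydrolysis that J proteins (the Dnaj genes) stimulate and that BAG and Hsp110 proteins help to complete, Hsp90 proteins act on clients such as kinases and steroid receptors, chaperonins enclose their clients in a ring, and small heat shock proteins hold them without ATP. Stress that unfolds cytosolic proteins activates the transcription factor Hsf1, which induces one set of members, and unfolded protein in the endoplasmic reticulum induces another. In humans, mutations of HSPB1, HSPB8, HSPB3, BAG3 and DNAJB2 are known causes of inherited neuropathies, and myelinating Schwann cells make large amounts of membrane protein through the endoplasmic reticulum.

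The female pools held 55949876 to 66285694 and the male pools 59165914 to 78473057 assigned read pairs. Levels below are in TPM (transcript abundance per unit of effective length, scaled to the same total in every pool), summed over the protein-coding transcripts of a symbol. The label of peripheral nerve was borne out by its markers: 12 genes of myelinating Schwann cells summed to 34855 to 42166 TPM in female and 40178 to 44202 TPM in male pools, lowest in F1. Pool F2 stood apart by fast skeletal muscle RNA. The 18 fast muscle genes summed to 4272 TPM in F2, against 27.6 to 272 TPM in the other 5 pools, and 16 of the 18 were highest in F2. The 10 slow muscle genes did not follow, at 39.8 TPM in F2, against 33.3 to 105 TPM in the other 5 pools. The neutrophil sum was also highest in F2, at 5840 TPM, against 3288 to 4622 TPM in the other 5 pools, and 5 of the 8 genes were highest there. Macrophage markers (8 genes) summed to 1471 to 1675 TPM in female and 1781 to 1979.5 TPM in male pools, and white adipocyte markers (8 genes) to 599.7 to 1134 TPM in female and 534 to 578 TPM in male pools, so that both lists separated the sexes without overlap. Among single genes tested, every female pool was above every male pool in 4.5% and below in 7.43%. Whether the separation of these sums exceeds that of other lists was not tested. The other lists overlapped between the sexes: fibroblast (8 genes) at 9657 to 10420.3 TPM in female and 10054 to 11735 TPM in male pools, endothelial (8 genes) at 272 to 312 and 273 to 353 TPM, erythroid (6 genes) at 8042 to 30718 and 4953 to 14084 TPM, neutrophil (8 genes) at 3288 to 5840 and 3596 to 4622 TPM, slow muscle (10 genes) at 34.2 to 44.6 and 33.3 to 105 TPM, and sensory neuron soma (8 genes) at 14.4 to 18.3 and 16.01 to 19.5 TPM, female pools first in each pair. No gene of these lists was at 0 in every pool. The part of these cell types in the results was not tested, and the counts that lead the comparison and the members that differ most in F2 are given with and without it.

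Most members were well expressed in sham nerve, and a few of them were among the most abundant transcripts of the tissue. The summed level of all members was 7560.3, 7249 and 6433 TPM in F1 to F3, against 6610.3, 6594 and 6382 TPM in M1 to M3, which was 0.643 to 0.756% of all TPM in female and 0.638 to 0.661% in male pools. Of the 91 members, 80 reached the minimum for testing of 0.5 CPM (counts scaled to library size) in 3 pools. By mean TPM, 58 of these 80 lay above the median gene tested (15.1 TPM), 21 above the 90th percentile (89.5 TPM) and 7 below the 25th (4.85 TPM), and their median percentile was 69.6. The extremes were Hspa8 at 1036 TPM, percentile 99.3 of the genes tested, and the J protein Dnajc6 at 0.528 TPM.

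**Figure D1:**
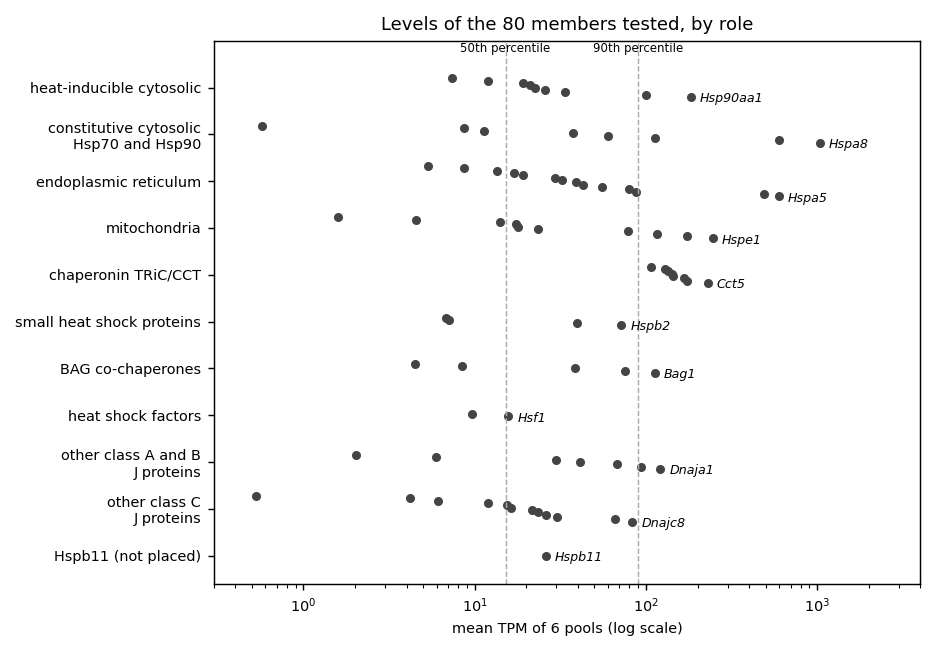
Mean TPM over 6 pools (log scale) of the 80 members tested, 1 point a gene, in rows by role, with the highest gene of each role named and dashed lines at the 50th and 90th percentile of all genes tested (15.1 and 89.5 TPM). All 8 chaperonin subunits sit right of the 90th percentile line, and Hspa8, Hsp90ab1, Hspa5 and Hsp90b1 lie highest, at 1036, 602, 598 and 486 TPM.

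Between the sexes, no member passed the threshold of an adjusted p of 0.1 in edgeR's quasi-likelihood test, where 8 of 14152 genes did (0.0565%). The smallest adjusted p of a member was 0.371. DESeq2 called 3 of 78 members, Hspa1b, Hsph1 and Hspb1, all higher in female pools, where it called 147 genes in all (1.04%), and without pool F2 it called 1 member, Hspa1b, and 85 genes. limma voom with sample weights called 0 members and 13 genes.

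Short of the threshold, small differences leaned to the female side. At an unadjusted p under 0.05 in edgeR, 10 of 80 members were higher in female pools (12.5%, against 2.58% of all genes) and 1 was lower (1.25%, against 3.64%). All 3 female pools lay above all 3 male pools in TPM for 12 members (15%, against 4.5% of all genes) and below them for 2, Bag1 and Dnajb14 (2.5%, against 7.43%). Of the log2 fold changes of female over male, 61 of 80 were above 0 (76.25%, against 50.6% of all genes), with a median of 0.06, against 0.00 over all genes. The size was small, since 66 of the 80 were within 0.2 of 0. These counts depended on single pools. The 10 members became 6, 5, 17, 5 and 4 without F1, F2, F3, M1 and M2, when the share over all genes was 2.43, 1.91, 4.51, 2.33 and 1.59%. The 12 members became 17, 13, 39, 19, 20 and 16 without F1, F2, F3, M1, M2 and M3. The share over all genes was then 8.78, 6.54, 17.04, 9.999, 7.74 and 7.94%. With 1 pool fewer, complete separation is easier to reach, so a rise of this count alone does not show dependence on a pool. The 61 members above 0 became 59 without F2 (73.75%, against 50.8% of all genes).

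**Figure D2:**
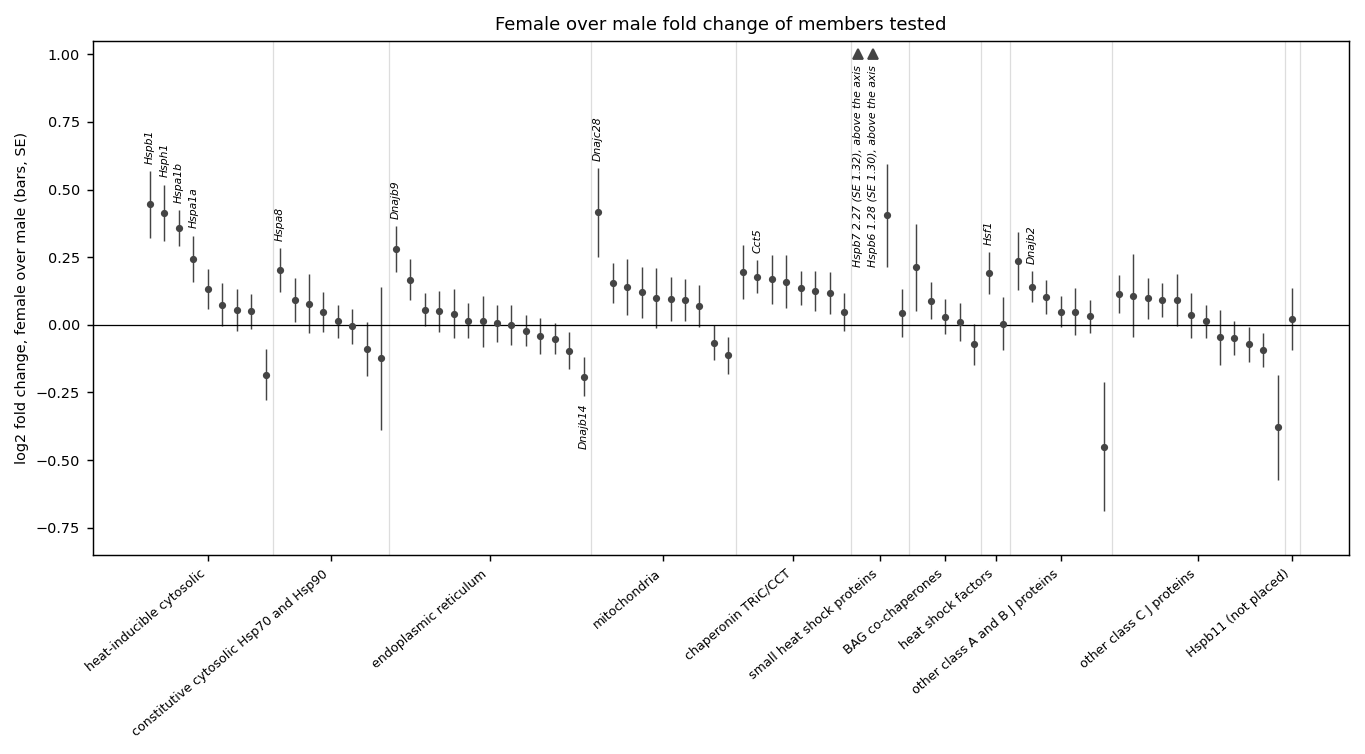
Fold change of female over male pools (log2, edgeR) with a standard error derived from its F statistic for the 80 members tested, 1 point a gene, ordered by role and then by size, with names where the unadjusted p was under 0.05. Most points sit between 0 and 0.2, and Hspb7 and Hspb6, whose values of 2.27 and 1.28 lie above the axis, are drawn as triangles at the top.

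The heat-inducible cytosolic members are the genes that Hsf1 raises in heated cells, and they held the 3 smallest p-values of all members. Hspa1a and Hspa1b are near-identical neighbouring genes for the inducible Hsp70, Hsph1 encodes the Hsp110 exchange factor and Hspb1 the small heat shock protein Hsp27. RefSeq promoter windows were searched for the heat shock element, either 3 units (GAANNTTCNNGAA or TTCNNGAANNTTC) or 2 units (GAANNTTC or TTCNNGAA), with N for any base. These forms cover both strands, and each 3-unit match holds overlapping 2-unit matches. A window covers 250 bases before to 50 bases after a start. The 250 bases before the start are shown for these 4 genes on build GRCm38.p6, with 2-unit matches in capitals: Hspa1b at chr17:34959239-34959488 (minus strand), Hspa1a at chr17:34972157-34972406 (minus strand), Hsph1 at chr5:149636337-149636586 (minus strand, 1 of its 2 windows) and Hspb1 at chr5:135887669-135887918 (plus strand).
Hspa1b: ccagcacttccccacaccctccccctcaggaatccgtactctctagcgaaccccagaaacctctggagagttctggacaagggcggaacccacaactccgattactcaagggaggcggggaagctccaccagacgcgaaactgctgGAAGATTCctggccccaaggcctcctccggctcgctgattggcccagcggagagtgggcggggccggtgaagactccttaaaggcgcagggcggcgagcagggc
Hspa1a: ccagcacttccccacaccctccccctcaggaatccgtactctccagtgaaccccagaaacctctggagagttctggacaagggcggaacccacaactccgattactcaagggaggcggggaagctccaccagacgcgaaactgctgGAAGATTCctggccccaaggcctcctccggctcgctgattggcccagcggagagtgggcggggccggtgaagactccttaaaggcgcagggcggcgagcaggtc
Hsph1: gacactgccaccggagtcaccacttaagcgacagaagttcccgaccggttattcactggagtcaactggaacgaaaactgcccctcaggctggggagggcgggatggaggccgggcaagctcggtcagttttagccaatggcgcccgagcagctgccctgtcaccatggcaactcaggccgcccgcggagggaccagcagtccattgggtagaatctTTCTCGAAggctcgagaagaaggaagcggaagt
Hspb1: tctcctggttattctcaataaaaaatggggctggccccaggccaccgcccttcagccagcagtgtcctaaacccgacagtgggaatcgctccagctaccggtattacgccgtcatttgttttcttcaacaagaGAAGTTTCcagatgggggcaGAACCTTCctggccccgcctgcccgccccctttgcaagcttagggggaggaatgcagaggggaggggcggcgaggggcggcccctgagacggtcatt
The Hspa1a and Hspa1b stretches differed at 3 of 250 bases and carried the same match at 104 to 97 bases before the start, while Hspb1 carried 2 matches. In Hsph1 a 3-unit match lay after the start, at bases 36 to 48. A 2-unit match was present in 24.7% of the 93 windows of 73 members, against 15.1% of all 32851 windows, and a 3-unit match in 6.45% of member windows, against 0.603%. The 3-unit windows belonged to Hsph1, Dnajb6, Hspd1 and Hspe1. These windows are not independent, since overlapping windows of Hsph1 and of Dnajb6 held the same match and Hspd1 and Hspe1 shared theirs. The 4 genes shown are the inducible members whose pools did not overlap between the sexes, and they were picked for display with these values known. Bag3 and Dnaja4, inducible members whose pools overlapped, carried 2-unit matches too. None was found for inducible Dnajb1, which had a window, or listed for Hsp90aa1 and Hspa4l. All of these are matches of letters and not shown to be bound, and 18 members had no window in the table.

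Hspa1b (ENSMUSG00000090877) had 13.4, 12.7 and 13.02 TPM in female pools, against 11.6, 11.004 and 10.4 TPM in male pools. Each female pool was above each male pool, and the spread within a sex was small. The log2 fold change was 0.36 (SE 0.07), with an adjusted p of 0.371 in edgeR and 0.00676 in DESeq2. Hspa1a (ENSMUSG00000091971) was lower, at 7.57, 7.45 and 8.21 TPM in female pools, against 6.61, 7.03 and 7.29 TPM in male pools. Its groups did not overlap either, although F2 and M3 were close, and the log2 fold change was 0.24 (SE 0.09, edgeR adjusted p 0.738). Since 63.8% of the 31-base words of the Hspa1a transcript also occur in Hspa1b, the split between this pair is uncertain. Their sum was 20.9, 20.2 and 21.2 TPM in female pools, against 18.2, 18.03 and 17.6 TPM in male pools, again without overlap.

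Hsph1 (ENSMUSG00000029657) had 32.6, 32.2 and 23.8 TPM in female pools, against 22.3, 23.0 and 19.7 TPM in male pools. F1 and F2 stood well above the rest, while F3 exceeded M2 by less than 1 TPM. This holds for coding transcripts only. The share of Hsph1 TPM on transcripts not annotated as protein-coding was 22.3, 20.6 and 23.8% in female and 27.1, 28.1 and 34.0% in male pools. Over all transcripts the log2 fold change was 0.39 (SE 0.10, edgeR adjusted p 0.530). For the coding transcripts it is given next. The log2 fold change was 0.41 (SE 0.10), with an adjusted p of 0.490 in edgeR and 0.0548 in DESeq2, and without F2 the DESeq2 adjusted p was 0.493. Hspb1 (ENSMUSG00000004951) had 102, 129.7 and 103 TPM in female pools, against 90.2, 82.2 and 93.0 TPM in male pools. All female pools were above all male pools and the highest was F2, the pool with fast muscle RNA. The log2 fold change was 0.45 (SE 0.12), with an adjusted p of 0.569 in edgeR and 0.0931 in DESeq2. Without F2 it was 0.32 (SE 0.11, edgeR adjusted p 0.9999), and the DESeq2 adjusted p was 0.651.

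The other 5 inducible members overlapped between the sexes. Hsp90aa1, the inducible Hsp90, was the most abundant of the role at 212, 184 and 171 TPM in female pools, against 182, 178 and 166 TPM in male pools, a log2 fold change of 0.06 (SE 0.08, edgeR adjusted p 0.921) that was -0.0027 without F1. Bag3, which couples Hsp70 to small heat shock proteins and to autophagy, had 35.6, 35.3 and 32.5 TPM in female pools, against 31.99, 31.3 and 34.0 TPM in male pools (log2 fold change 0.13, SE 0.07, edgeR adjusted p 0.823). Dnajb1, the J protein partner of inducible Hsp70, varied little between pools, with 23.8, 22.6 and 22.1 TPM in female pools, against 21.6, 22.8 and 22.3 TPM in male pools (log2 fold change 0.05, SE 0.06, edgeR adjusted p 0.913). For Dnaja4, another J protein, the values were 18.2, 20.6 and 20.5 TPM in female pools, against 18.5, 19.0 and 18.7 TPM in male pools (log2 fold change 0.07, SE 0.08, edgeR adjusted p 0.889). Hspa4l, an Hsp110 relative, was the only inducible member with a negative estimate, at 19.0, 21.6 and 20.5 TPM in female pools, against 21.9, 23.1 and 20.4 TPM in male pools (log2 fold change -0.18, SE 0.09, edgeR adjusted p 0.821). With any 1 pool left out, the estimate ran from -0.24 to -0.10 for Hspa4l, with -0.11 without F1 and -0.10 without M2, while for Dnaja4 it ran from 0.02 (without F3) to 0.14 (without F1) and for Dnajb1 from 0.02 (without M1) to 0.08 (without M3). Summed over the 9 inducible members, the level was 448 ± 29.4 TPM in female and 399 ± 7.51 TPM in male pools (SD, n = 3 each), with a female mean of 439 TPM without F2. The role had a median log2 fold change of 0.13, with 8 of 9 members above 0, against 50.6% of all genes. In 4 of the 9, every female pool was above every male pool in TPM of coding transcripts, against 4.5% of all genes.

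**Figure D3:**
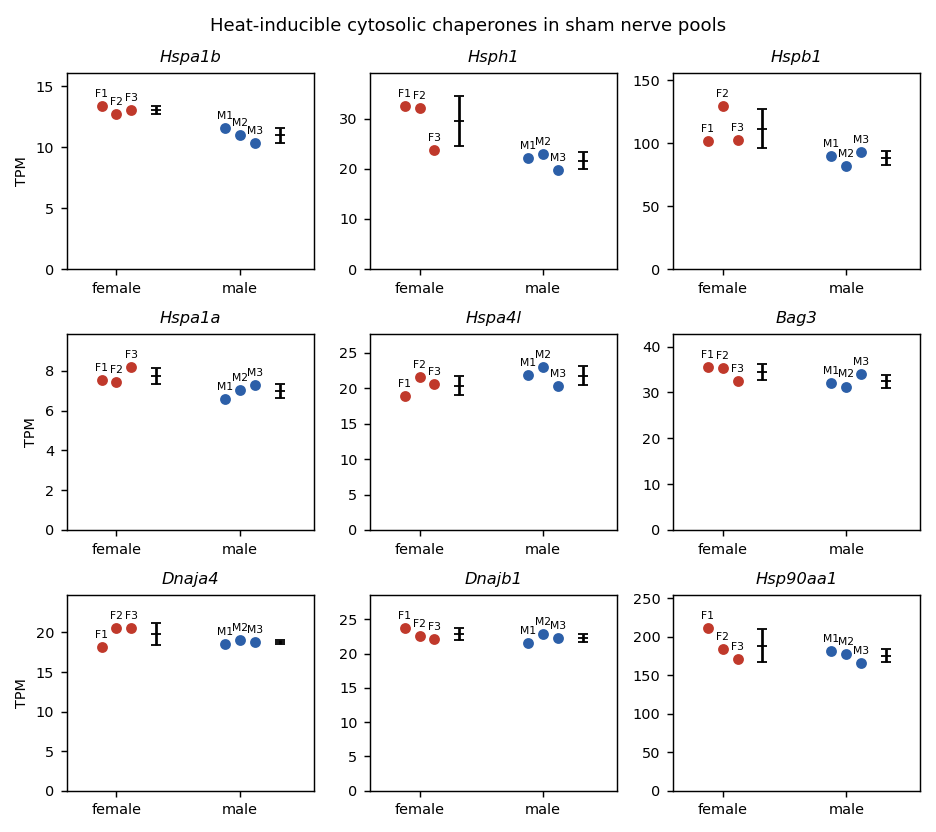
TPM of the coding transcripts of the 9 heat-inducible cytosolic members in each pool (female F1 to F3 in red, male M1 to M3 in blue), with the mean and SD of 3 pools beside the points, on axes that start at 0. Hspa1b, Hsph1, Hspb1 and Hspa1a show every female pool above every male pool, with means of 13.04, 29.5, 112 and 7.74 TPM in female and 10.97, 21.7, 88.5 and 6.97 TPM in male pools, and the other 5 genes overlap.

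The transcription factors behind this set were themselves moderately expressed. Hsf1, the master regulator of the heat shock response, had 16.7, 18.1 and 15.7 TPM in female pools, against 14.8, 14.7 and 14.4 TPM in male pools. The groups did not overlap in coding transcripts, and F3 came closest to the male pools. The share of Hsf1 TPM outside the protein-coding transcripts was 31.99 to 37.4% in female and 39.4 to 42.9% in male pools. It was lowest in F3 and lower in every female than in every male pool. The coding levels of Hsf1 therefore do not show that the sexes separate over all its transcripts. Hsf2, which can form trimers with Hsf1, had 9.75, 10.1 and 9.92 TPM in female pools, against 9.47, 10.1 and 8.88 TPM in male pools, with overlap. Neither passed the edgeR threshold (adjusted p of 0.780 for Hsf1 and 0.996 for Hsf2), and the log2 fold change of Hsf1, which was highest in F2, was 0.19 with and 0.17 without that pool.

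The 2 most abundant members of the cytosol were constitutive. Hspa8, the constitutive Hsp70 that also strips clathrin from vesicles, had 1209, 1141 and 976 TPM in female pools, against 958, 992 and 942 TPM in male pools. F1 and F2 were above every male pool, but F3 lay below M2. Relative to the sum of Hspa1a and Hspa1b, Hspa8 was 46.0 to 57.8 times as high in female and 52.7 to 55.0 times as high in male pools. Hsp90ab1, the constitutive Hsp90, had 679, 618 and 561 TPM in female pools, against 623, 592 and 536 TPM in male pools. The ranges overlapped, and its ratio to Hsp90aa1 held between 3.20 and 3.37 in female and between 3.23 and 3.42 in male pools. Hspa12a, an atypical Hsp70 relative, had 118, 122 and 106 TPM in female pools, against 105, 113 and 116 TPM in male pools, again with overlap. The exchange factor Hspa4, Hspa14, Hspa12b and Hspa2 averaged 60.4, 37.7, 11.3 and 8.68 TPM over the 6 pools. Hspa1l, a relative expressed mainly in testis, was near the bottom of the list, at 0.495, 0.622 and 0.522 TPM in female pools and 0.526, 0.464 and 0.818 TPM in male pools. In this role 5 of 8 log2 fold changes were above 0, against 50.6% of all genes, with a median of 0.03. The smallest adjusted p in edgeR was 0.780, that of Hspa8.

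Endoplasmic reticulum members fold secreted and membrane proteins. The endoplasmic reticulum stress element, through which the unfolded protein response is known to act, was searched on both strands as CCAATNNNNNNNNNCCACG, a match that always contains a CCAAT box. It occurred in 0.119% of all windows, and among members in Hspa5, Hsp90b1 and Dnajc3. The 250 bases before their starts are shown on GRCm38.p6 with these matches in capitals: Hspa5 at chr2:34771840-34772089 (plus strand), Hsp90b1 at chr10:86705445-86705694 (minus strand), whose second match reads on the opposite strand, and Dnajc3 at chr14:118937682-118937931 (plus strand).
Hspa5: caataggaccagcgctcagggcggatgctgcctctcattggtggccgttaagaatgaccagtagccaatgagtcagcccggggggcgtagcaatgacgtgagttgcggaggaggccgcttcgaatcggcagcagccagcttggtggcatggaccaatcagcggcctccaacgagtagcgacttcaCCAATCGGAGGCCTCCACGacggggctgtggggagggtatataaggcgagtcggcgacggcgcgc
Hsp90b1: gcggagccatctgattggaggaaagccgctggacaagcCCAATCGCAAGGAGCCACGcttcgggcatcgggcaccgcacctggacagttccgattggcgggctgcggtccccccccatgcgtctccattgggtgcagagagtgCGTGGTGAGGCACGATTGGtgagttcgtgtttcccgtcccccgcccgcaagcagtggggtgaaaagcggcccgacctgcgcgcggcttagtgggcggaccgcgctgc
Dnajc3: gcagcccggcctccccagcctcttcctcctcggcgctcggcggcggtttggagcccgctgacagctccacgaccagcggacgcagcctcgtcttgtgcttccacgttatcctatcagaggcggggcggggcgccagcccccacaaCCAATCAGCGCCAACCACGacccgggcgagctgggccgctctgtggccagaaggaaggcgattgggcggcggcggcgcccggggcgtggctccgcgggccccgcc
The CCAAT box alone occurred in 38.7% of member windows and 37.4% of all windows, so that only the full element, present in 3 of 73 members, was rare. A match does not show that the element is used.

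Hspa5, which encodes BiP, the main Hsp70 of the endoplasmic reticulum, had 703, 638 and 565 TPM in female pools, against 570.2, 569.5 and 540.1 TPM in male pools. F1 and F2 were above every male pool, and F3 was within the male range. Hsp90b1, which encodes the Hsp90 of this compartment (Grp94), had 489, 484 and 461 TPM in female pools, against 495, 527 and 461 TPM in male pools. Its highest values were in M1 and M2, where those of Hspa5 were in F1 and F2. The third carrier, Dnajc3, a J protein that also inhibits the eIF2 kinase PERK, had 85.4, 82.5 and 77.3 TPM in female pools, against 76.2, 81.7 and 71.2 TPM in male pools, and was described for its promoter after its values had been seen. Adjusted p-values in edgeR were 0.795, 0.852 and 0.925 for these 3 genes.

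Dnajb9 (ENSMUSG00000014905) was the endoplasmic reticulum member that differed most. This J protein, also known as ERdj4, is induced by the unfolded protein response and holds BiP on the stress sensor IRE1. It had 50.8, 49.5 and 44.2 TPM in female pools, against 36.0, 39.01 and 37.5 TPM in male pools. The lowest female pool exceeded the highest male pool by more than either sex's SD (48.2 ± 3.49 TPM in female and 37.5 ± 1.52 TPM in male pools, n = 3 each). The log2 fold change was 0.28 (SE 0.09, edgeR adjusted p 0.622) and stayed between 0.24 and 0.37 when any 1 pool was left out. Dnajb11, a J protein partner of BiP, had 94.2, 86.1 and 79.1 TPM in female pools, against 88.0, 88.4 and 88.4 TPM in male pools, so that the female pools spread on both sides of the male ones. Dnajb14, a membrane J protein named here because its pools did not overlap, had 18.5, 18.2 and 18.4 TPM in female pools, against 19.2, 20.5 and 20.7 TPM in male pools (edgeR adjusted p 0.768). The 14 genes of the role lay on both sides of 0, with 8 log2 fold changes above and 6 below and a median of 0.01. Of all genes, 50.6% were above 0.

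Mitochondrial members refold proteins after import. Hspd1 and Hspe1, the chaperonin Hsp60 and its lid Hsp10, lie head to head on chromosome 1 with 215 bases between their RefSeq starts. The stretch before the Hspe1 start, chr1:55087898-55088147 (GRCm38.p6, plus strand), is shown because it holds 2 overlapping 3-unit heat shock elements, in capitals, that fall within 1 of the 2 Hspd1 windows as well.
Hspe1: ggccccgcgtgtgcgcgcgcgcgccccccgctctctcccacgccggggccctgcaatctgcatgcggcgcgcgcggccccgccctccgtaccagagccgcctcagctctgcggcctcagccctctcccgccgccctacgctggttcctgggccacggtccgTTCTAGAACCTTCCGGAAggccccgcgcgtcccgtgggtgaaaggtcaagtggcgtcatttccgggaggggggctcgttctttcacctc
Hspe1 had 278, 249 and 232 TPM in female pools, against 244, 222 and 246 TPM in male pools. Hspd1 had 215, 184 and 154 TPM in female pools, against 174, 158 and 157 TPM in male pools. Both were highest in F1 and overlapped between the sexes, and the ratio of Hspd1 to Hspe1 was 0.662 to 0.772 in female and 0.641 to 0.712 in male pools. Their gene models overlap on opposite strands, and whether strand was used in counting is not given in the sources used here. Hspa9, the mitochondrial Hsp70 (mortalin), had 137, 123 and 105 TPM in female pools, against 115, 109 and 109.5 TPM in male pools, with F1 and F2 above and F3 below the male pools. The J protein Dnajc28, named here because its pools did not overlap, was near the lower end at 1.598, 2.12 and 1.83 TPM in female pools, against 1.51, 1.41 and 1.14 TPM in male pools (edgeR adjusted p 0.780). Dnajc30, another J protein without overlap, was closer between the sexes, at 14.2, 14.7 and 14.05 TPM in female pools, against 13.7, 13.99 and 13.95 TPM in male pools. Of the 10 mitochondrial members, 8 had a log2 fold change above 0, against 50.6% of all genes, and the median was 0.10.

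The chaperonin TRiC, which folds actin and tubulin, is a ring of 8 different subunits, and its genes were the most uniform role. Cct5 (ENSMUSG00000022234) was the most abundant, at 255, 248 and 224 TPM in female pools, against 218, 218 and 209 TPM in male pools. The groups did not overlap, and the log2 fold change was 0.18 (SE 0.06, edgeR adjusted p 0.738). Cct2 followed with 202, 176 and 163 TPM in female pools, against 173, 164 and 160.2 TPM in male pools. Tcp1, the alpha subunit, had 189, 170.0 and 157 TPM in female pools, against 163, 163 and 164 TPM in male pools. In both, F1 and F2 exceeded all male pools and F3 did not. The other 5 subunits averaged 107 to 143 TPM, Cct4 without overlap between the sexes at 150.4, 143 and 130.4 TPM in female pools, against 128, 129 and 127 TPM in male pools. Across subunits, within a pool the highest subunit was 2.08 to 2.29 times the lowest in female and 1.98 to 2.31 times in male pools. All 8 were highest in F1, against 24.3% of all genes, and all 8 log2 fold changes were above 0, against 50.6%. These ran between 0.05 and 0.20 with a median of 0.15, yet only Cct5 reached an unadjusted p under 0.05 in edgeR. The sum of the role was 1419, 1294 and 1146 TPM in F1 to F3, against 1183, 1156 and 1143 TPM in M1 to M3. The testis subunit Cct6b stood at 0.116 to 0.282% of Cct6a in female and 0.126 to 0.197% in male pools, and Cct8l1 at 0 to 0.0146 TPM.

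Pool by pool, members were most often highest in F1 and F2. Of the 80 members, 36 were highest in F1 (45%, against 24.3% of all genes tested), 24 in F2 (30%, against 16.3%) and 2 in F3 (2.5%, against 10.6%). In male pools 1 was highest in M1 (1.25%, against 16.7%), 9 in M2 (11.25%, against 15.6%) and 8 in M3 (10%, against 16.5%). Relative to the mean of the other 5 pools, the median member was at 1.06 in F1 and 1.07 in F2, where the median gene was at 1.01 in both. F1 was also the pool with the lowest Schwann cell sum, F2 that with the highest fast muscle and neutrophil sums and F3 that with the highest erythroid sum. Their part in this pattern was not tested.

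**Figure D4:**
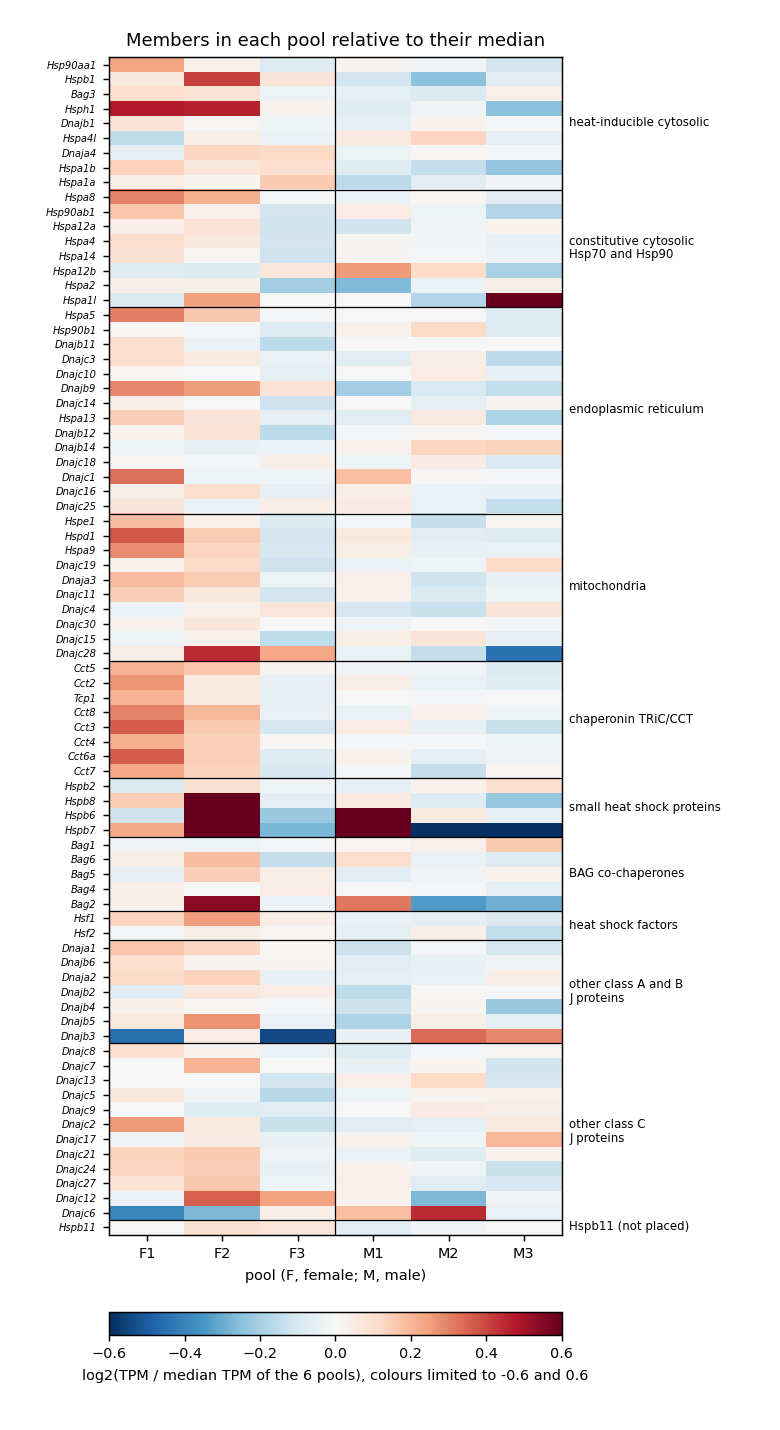
Level of the 80 members tested in each pool relative to the median of the 6 pools (log2 of the TPM ratio, red above and blue below the median, with the colour scale cut at both ends), with female pools F1 to F3 left of the line and male pools M1 to M3 right of it, in rows by role. The F1 column is red over all 8 chaperonin rows, and Hspb6, Hspb7 and Hspb8 stand out in F2, where Hspb6 and Hspb7 had 26.0 and 28.5 TPM.

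Of the small heat shock proteins other than Hspb1, Hspb6 and Hspb7 varied most between pools. Hspb6 (Hsp20), which is abundant in skeletal and smooth muscle, had 2.09, 26.0 and 1.94 TPM in female pools, against 8.11, 2.36 and 2.18 TPM in male pools. Hspb7, a heart and muscle member, had 3.03, 28.5 and 2.14 TPM in female pools, against 4.31, 1.37 and 1.34 TPM in male pools. In F2 they were 11.4 and 11.009 times the median of the 6 pools, and M1 was next highest for both. The 18 fast muscle genes, which summed to 27.6, 4272 and 90.1 TPM in female and 272, 99.8 and 75.9 TPM in male pools, also had F2 highest and M1 next. Hspb8 (Hsp22), a partner of Bag3, was 39.8, 60.5 and 34.3 TPM in female pools, against 37.2, 33.9 and 30.6 TPM in male pools, also highest in F2 but expressed in every pool. Their log2 fold changes, computed after the values had been seen, were 1.28 (SE 1.302), 2.27 (SE 1.32) and 0.40 (SE 0.19) for Hspb6, Hspb7 and Hspb8, with edgeR adjusted p-values of 0.884, 0.843 and 0.802. Without F2 they were -1.02, 0.17 and 0.15, with every edgeR adjusted p at 0.9999. Hspb2, which binds the myotonic dystrophy kinase, showed no such pattern, with 67.5, 76.0 and 70.0 TPM in female pools, against 68.6, 72.8 and 76.3 TPM in male pools. Hspb2 lies within the Cryab gene model on the opposite strand, so its reads are uncertain where strand was not used. Hspb3, a partner of Hspb2, was under the minimum for testing, and its highest value, 0.798 TPM, was again in F2.

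**Figure D5:**
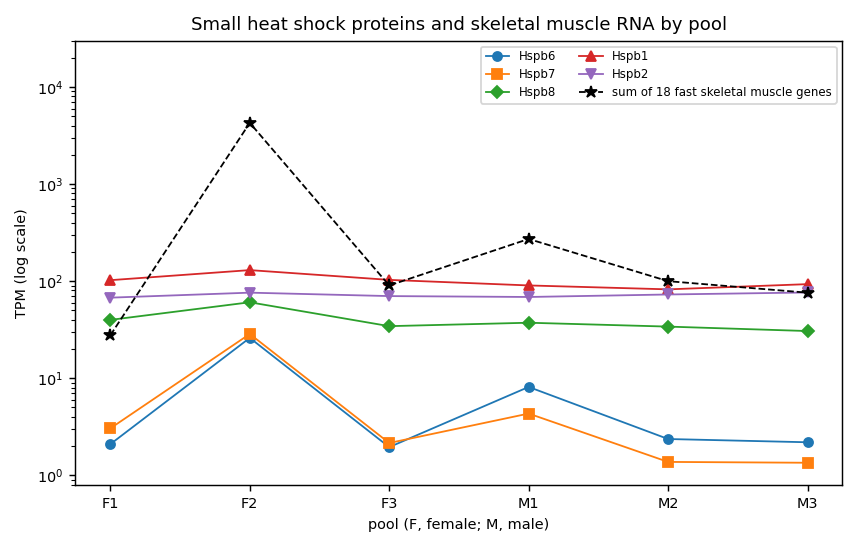
TPM (log scale) of 5 small heat shock protein genes in female pools F1 to F3 and male pools M1 to M3, with the sum of 18 fast skeletal muscle genes as a dashed black line. Hspb6 and Hspb7 peak in F2 with the muscle sum (26.0, 28.5 and 4272 TPM), Hspb8 has its highest point there too (60.5 TPM), and Hspb2 stays between 67.5 and 76.3 TPM.

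BAG proteins release clients from Hsp70. Bag1, the founding member and also a binder of Bcl-2, had 109.5, 109 and 109.8 TPM in female pools, against 112, 113 and 124 TPM in male pools. All female pools were below all male pools, but the difference was small and mostly from M3 (edgeR adjusted p 0.883). Bag6, which triages proteins bound for the membrane, had 76.5, 84.6 and 67.4 TPM in female pools, against 79.99, 72.3 and 70.6 TPM in male pools. Bag5 had 36.9, 42.3 and 39.1 TPM in female pools, against 36.4, 37.7 and 38.7 TPM in male pools. Both were highest in F2 and overlapped between the sexes, with log2 fold changes of 0.03 and 0.09 with F2 and of 0.01 and 0.05 without it, and Bag4 and Bag2 averaged 8.43 and 4.51 TPM.

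Among the remaining class A and B J proteins, Dnaja1, a partner of Hspa8 in import and folding, had 135, 131 and 121 TPM in female pools, against 109.8, 119 and 112 TPM in male pools. Dnajb6, a suppressor of polyglutamine aggregation with a 3-unit heat shock element in its windows, had 100.0, 94.4 and 94.4 TPM in female pools, against 89.2, 90.3 and 92.2 TPM in male pools. Neither overlapped between the sexes, and the edgeR adjusted p-values were 0.843 and 0.940. Dnaja2 had 71.96, 73.1 and 64.4 TPM in female pools, against 64.0, 64.6 and 68.1 TPM in male pools, with overlap. Dnajb2, the neuropathy gene, reached an unadjusted p under 0.05 although its pools overlapped, at 39.4, 43.4 and 42.8 TPM in female pools, against 37.4, 41.8 and 41.3 TPM in male pools, and was named after its values had been seen (log2 fold change 0.14, SE 0.06, edgeR adjusted p 0.785, and 0.12 without F2, its highest pool).

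The class C J proteins share only the J domain, and those placed with the endoplasmic reticulum or mitochondria are given above. None of the 12 remaining tested genes of the class separated the sexes. Over all genes, every female pool was above every male pool in 4.5% and below in 7.43%. Dnajc8, a splicing protein, had 89.2, 84.4 and 81.0 TPM in female pools, against 78.8, 82.9 and 83.5 TPM in male pools. Dnajc7, which binds both Hsp70 and Hsp90, had 65.3, 75.2 and 65.1 TPM in female pools, against 63.1, 66.0 and 60.1 TPM in male pools. Dnajc13, an endosomal protein, had 30.2, 30.4 and 28.1 TPM in female pools, against 30.9, 32.9 and 28.3 TPM in male pools. All 3 overlapped, the log2 fold change of Dnajc7 was 0.10 with and 0.02 without F2, its highest pool, and the median log2 fold change of the role was 0.02. Hspb11, which carries the family's symbol but encodes an intraflagellar transport protein, had 25.7, 27.4 and 27.1 TPM in female pools, against 24.5, 25.4 and 25.8 TPM in male pools.

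Besides Hspb3, Cct6b and Cct8l1, another 8 members were under the minimum for testing. Dnajb8 and Dnajc5g, both known from testis, were listed at 0 in every pool. The testis gene Dnajb13, Dnajb7 and Hspb9 reached at most 0.167, 0.380 and 0.205 TPM, and Dnajc5b and Dnajc22 at most 0.184 and 0.0321 TPM.

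Other chaperones and partners outside the symbol rule were also measured. Of 40 listed genes, among them the Hsp90 co-chaperones, prefoldin and the collagen chaperone Serpinh1, 38 were tested, 0 were called by edgeR or DESeq2 and 1 reached an unadjusted p under 0.05, higher in female pools, where 2.58% of all genes did. Of the log2 fold changes, 28 were above 0 and 10 below, where 50.6% of all genes were above. Their median was 0.07, against 0.06 for the members and 0.00 for all genes. The 3 most abundant were Cryab, the lens and muscle small heat shock protein alpha-B crystallin, at a mean of 1289 TPM, Serpinh1 at 555 TPM and the prefoldin subunit Pfdn5 at 180.1 TPM. Cryab had 1197, 1489 and 1332 TPM in female pools, against 1173, 1245 and 1296 TPM in male pools, and its mean was above that of every member, Hspa8 included. Its log2 fold change was 0.12 with F2, its highest pool, and 0.05 without it. The gene past the unadjusted threshold was Fkbp5, an Hsp90 co-chaperone induced by glucocorticoids, and it was named after its values had been seen. It had 30.7, 37.5 and 52.7 TPM in female pools, against 27.9, 26.2 and 29.2 TPM in male pools, with F3 far above the rest and no overlap (log2 fold change 0.56, SE 0.20, edgeR adjusted p 0.775).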

How the data were processed

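RNA of 6 pools of sham-operated sciatic nerve was sequenced as stranded, paired-end poly(A) libraries. The submitters' processing notes name Trimmomatic 0.39, Salmon 1.5.2 and MultiQC 1.9, and the authors deposited, for each pool, the estimated count of read pairs, the TPM and the effective length of 140789 GENCODE mouse transcripts, of which 58823 are protein-coding. Pools were grouped by the sex in the labels. The members and lists were chosen with earlier results of these data known.

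The deposited estimated counts of protein-coding transcripts were summed per symbol, as the deposited TPM were, and rounded. Genes with at least 0.5 CPM (counts scaled to library size) in 3 pools (14152) were tested for female over male with TMM factors and robust quasi-likelihood fits in edgeR 4.0.16 (R 4.3.3), with Benjamini-Hochberg adjustment over all genes and a threshold of 0.1. The common biological coefficient of variation was 0.158, and the pools held 55949876 to 78473057 read pairs. Standard errors (SE) of edgeR fold changes were derived as the absolute log2 fold change over the square root of the F statistic. The code was tested on simulated data. Alternatives were RLE factors, DESeq2 1.42.0, limma 3.58.1 (voom), other filters, all transcripts of a gene, a replicate block and each pool left out. Python 3.11.15 with pandas 2.3.3 made the summaries.

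Named were the 3 most abundant members of each role, the 6 smallest p-values, members with a pool at least 2 times the median, members called and all heat-inducible members. Promoter windows are from RefSeq on GRCm38.p6, and transcript words and gene positions from GENCODE M39. No column of the authors' own comparisons was present, and each pool had a file of its own. The values of 1 member under the minimum for testing are not reported here.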

Additional observations from a re-analysis of the deposited data

How the results depend on the processing

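Across 14 alternative fits the number of genes called moved over a wide range: 8 genes in edgeR became 147 in DESeq2, 85 in DESeq2 without F2, 13 in limma voom and 1 with a replicate block, and 1 to 5 when any 1 pool was left out. Members called were 0 in edgeR, also with each pool left out, 3 in DESeq2 and 1 in DESeq2 without F2. Members higher in female pools at an unadjusted p under 0.05 were 10 in edgeR, 19 in limma voom (6.03% of all genes), 6 with the replicate block (2.42%), 6 in DESeq2 without F2 (2.07%), and 4 to 17 with a pool left out. Members whose 3 female pools were above all male pools were 12 by TPM and 16 by CPM with TMM factors (5.21% of all genes). With a pool left out, where separation is easier to reach, such members were 13 to 39 (6.54 to 17.04% of all genes). In the other direction they were 2 by TPM and 4 by CPM with TMM factors. Members with a log2 fold change above 0 stayed within 1.5 times 61 in every alternative. The alternatives for these 3 counts, and DESeq2 without F2, were chosen after seeing the data. Same-numbered pools had correlations of -0.40, -0.13 and -0.01 over the 500 most variable genes, in deviations from the mean of each sex. The highest correlation, 0.41, was between F2 and M1. With 3 pools per sex, this check cannot exclude a pairing or a shared batch by replicate number. The median percentile of the members, 69.6, was 66.5 by CPM, 76.6 among all genes with a TPM above 0 and 71.0 over all transcripts. Of 14 named fold changes, 12 kept their direction in every alternative. Hsp90aa1 turned to -0.0027 without F1 (range over single pools left out -0.0027 to 0.089), and Hspb6 to -1.02 in edgeR and -1.01 in DESeq2 without F2 (range -1.02 to 2.14). Only the DESeq2 calls of Hspa1b, Hsph1 and Hspb1 crossed the threshold, and Hspa1b again without F2. RLE factors, the other filters, the requirement of a log2 fold change above 1 for members and the sum over all transcripts moved no other count by over 1.5 times.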

Other observations

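Many members also carried reads on transcripts that are not annotated as protein-coding, which the levels above leave out. Over the 80 members tested, the median share of a gene's TPM on such transcripts was 5.10%, with 39 members under 5% and 16 over 25%. The highest share belonged to Dnajc15, a J protein of the mitochondrial inner membrane, at 75.03 ± 5.05% (SD over 6 pools), mostly on a transcript class marked for nonsense-mediated decay, and Dnajc7 followed at 57.7 ± 2.90%, with retained introns as the largest class at 39.9 TPM. Both heat shock factors were in this group, with 38.7% for Hsf2 and 37.6% for Hsf1 and retained introns as the largest class, as were the chaperonin genes Cct6a (32.9%) and Tcp1 (28.2%). For Hspa5, 27.2% of the TPM lay outside the protein-coding transcripts. These genes were chosen after their values had been seen.

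Among coding transcripts, 48 of the tested members had 1 transcript with over 90% of the coding TPM. Bag1 was divided between transcripts of 1336 bases (54.4%) and 1295 bases (43.6%) over the 6 pools, an order that turned in F3 (45.7 and 62.6 TPM) and M1 (46.5 and 65.3 TPM), Hsp90aa1 between transcripts of 3281 bases (74.1%) and 2852 bases (25.8%), and Hspa4l between a transcript of 9479 bases (62.9%) and one of 2744 bases (36.6%). How well the reads separate such overlapping transcripts was not tested. Of the processed pseudogenes named after members, only Hspd1-ps4 stood above 1 TPM, at 1.27, 1.52 and 1.88 TPM in female pools, against 1.80, 1.11 and 1.24 TPM in male pools.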
